A study of Arabidopsis thaliana with 10 samples.

Results

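The *FLC* clade of *Arabidopsis thaliana* comprises *FLC* (AT5G10140) and its homologs *MAF1* (AT1G77080, also called *FLM*), *MAF2* (AT5G65050), *MAF3* (AT5G65060), *MAF4* (AT5G65070) and *MAF5* (AT5G65080). Together with AT5G01675, the annotated antisense gene of *FLC*, these are 7 genes of the 32548 in each table, and they were chosen by their gene identifiers. Expression was measured by RNA-seq in 10 libraries from whole seedlings aged 10 days, raised on MS medium at 23°C under long days (16 h light), and each of the 5 genotypes had 2 libraries that the study calls independent replicates. All genotypes were in the Col-0 background. The mutants *fld* (SALK_075401), *ld* (SALK_003039) and the double mutant *sdg26 aprf1* (SALK_013895 crossed with *aprf1-9*, WiscDsLox489-492K11) carried T-DNA insertions. In *efl2 efl4*, spelled elf2/4 in the sample titles, a CRISPR/Cas9 deletion in each gene was brought together by crossing. The wild type was Col-0. In these libraries each genotype is a single line without a second allele or a complemented line. Outside them, the study reports partial rescue of late flowering in *efl2 efl4* by *EFL2* or *EFL4* transgenes. It also reports that an *SDG26* transgene complemented late flowering and *FLC* expression in *sdg26 aprf1*. In whole seedlings fewer expressing cells and less RNA per cell cannot be told apart.

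The genes of this clade encode MADS-box transcription factors that repress flowering. FLC holds back the floral activators *FT*, which encodes the mobile florigen, and *SOC1*, and prolonged cold silences *FLC* through Polycomb proteins. *MAF1* acts in the response of flowering to ambient temperature, *MAF2* keeps short cold spells from being read as winter, and *MAF3*, *MAF4* and *MAF5* also repress flowering. The autonomous pathway keeps *FLC* low in plants that have seen no winter. FLD is a homolog of LSD1-type histone demethylases and LD a homeodomain protein of that pathway, SDG26 carries a SET domain, APRF1 WD40 repeats, and EFL2 and EFL4 are ELF4-like proteins. The antisense transcripts of *FLC* are collectively known as COOLAIR, and their processing is known to be coupled to *FLC* transcription.

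On the TAIR10.1 assembly, *FLC* lies on chromosome 5 from 3173382 to 3179448 on the − strand, and AT5G01675, a long noncoding RNA gene with 6 annotated transcripts, spans it from 3173371 to 3179600 on the + strand. *MAF2* (25982254 to 25986435), *MAF3* (25987309 to 25991412), *MAF4* (25992193 to 25996202) and *MAF5* (25997504 to 26002619) form a tandem cluster on the + strand of the same chromosome, with gaps of 873, 780 and 1301 bases. *MAF1* lies alone on chromosome 1 from 28955483 to 28960234 on the + strand. Over their coding sequences, *MAF2* and *MAF3* shared 93.6% identical bases and *MAF4* and *MAF5* 85.7%, whereas *FLC* shared 72.9% with *MAF5* and 78.4% with *MAF1*, the lowest and highest values against its homologs. Despite this likeness, at least 97.5% of the 50-base windows in the exons of each of the 7 genes occurred only once in the genome, the lowest share being that of *MAF3*. Windows lay inside single merged exons and were matched exactly. Reads across exon junctions, shorter exons and alignments with mismatches were therefore not covered, and how many reads could be exchanged between the homologs was not tested.

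The 200 bases before the annotated start of the 6 protein-coding genes are shown because 2 sets of them share stretches that no other such window holds. They come from the RefSeq TAIR10.1 assembly and are written 5′ to 3′ along each gene. Capitals mark a G-box in *FLC* and the stretches shared by *MAF4* with *MAF5*, and by *MAF1* with *MAF2* and *MAF3*.
*FLC*, chr5:3179449-3179648 (− strand): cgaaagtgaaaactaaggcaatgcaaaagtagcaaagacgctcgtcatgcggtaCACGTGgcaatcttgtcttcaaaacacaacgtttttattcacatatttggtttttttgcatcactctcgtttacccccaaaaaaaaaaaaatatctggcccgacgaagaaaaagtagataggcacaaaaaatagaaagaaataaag
*MAF4*, chr5:25991993-25992192 (+ strand): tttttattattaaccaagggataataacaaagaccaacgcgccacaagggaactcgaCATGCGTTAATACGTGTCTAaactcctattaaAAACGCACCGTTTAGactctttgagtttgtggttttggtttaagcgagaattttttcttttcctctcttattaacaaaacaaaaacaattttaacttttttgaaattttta
*MAF5*, chr5:25997304-25997503 (+ strand): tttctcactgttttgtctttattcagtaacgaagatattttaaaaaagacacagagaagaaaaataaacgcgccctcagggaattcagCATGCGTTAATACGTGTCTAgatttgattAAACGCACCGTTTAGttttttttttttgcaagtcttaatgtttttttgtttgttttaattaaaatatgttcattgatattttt
*MAF1*, chr1:28955283-28955482 (+ strand): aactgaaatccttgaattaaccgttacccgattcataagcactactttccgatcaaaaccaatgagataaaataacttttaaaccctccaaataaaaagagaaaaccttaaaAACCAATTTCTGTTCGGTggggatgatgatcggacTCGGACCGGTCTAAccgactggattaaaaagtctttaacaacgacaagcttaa
*MAF2*, chr5:25982054-25982253 (+ strand): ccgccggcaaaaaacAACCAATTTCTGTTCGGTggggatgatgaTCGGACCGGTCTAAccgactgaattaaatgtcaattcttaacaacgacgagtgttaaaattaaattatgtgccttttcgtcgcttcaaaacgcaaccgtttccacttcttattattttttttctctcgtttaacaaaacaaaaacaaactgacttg
*MAF3*, chr5:25987109-25987308 (+ strand): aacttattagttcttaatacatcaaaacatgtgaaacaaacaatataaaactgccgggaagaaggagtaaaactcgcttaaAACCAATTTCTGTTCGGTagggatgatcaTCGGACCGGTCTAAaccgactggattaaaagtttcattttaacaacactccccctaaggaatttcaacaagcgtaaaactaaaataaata

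*MAF4* and *MAF5* had runs of 20 and 15 identical bases in common, and each run occurred in only these 2 of 32546 windows of the same kind. *MAF1*, *MAF2* and *MAF3* had runs of 18 and 14 bases in common, again in no other window. The 2 sets were not wholly apart. *MAF2* and *MAF4* shared another run of 18 bases, left unmarked above, which 3 of the 32546 windows held. *FLC* shared at most 10 bases in a row with any of its homologs. Its window held a G-box (CACGTG, the same on both strands) beginning 146 bases before the start, a motif found in 5.11% of all windows and in none of the other member windows. These matches describe the sequence only, and their part in the changes below was not tested.

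The libraries held 20455413 to 20768023 reads on genes and so differed little in the precision they gave. Among the mutated genes, *FLD* had 42.9 and 40.2 normalized reads in *fld*, against 452 and 464 in Col-0, *LD* had 386 and 431 in *ld*, against 693 and 742 in Col-0, and *SDG26* had 50.5 and 54.8 in *sdg26 aprf1*, against 266 and 318 in Col-0. *APRF1* had 101 and 87.7 in *sdg26 aprf1*, against 146 and 175 in Col-0. In *efl2 efl4*, which carries small deletions, *EFL2* had 112 and 147, against 163 and 206 in Col-0, and *EFL4* had 112 and 91.1, against 117 and 149 in Col-0. Summed over the 3 shoot markers (*RBCS1A*, *LHCB2.1* and *CA1*) the 10 libraries were alike, root markers were present in each library, and the 5 flower markers together had at most 38.7 normalized reads in any library. The seed storage gene *CRA1* had 105 normalized reads in *efl2 efl4* replicate 2 and at most 7.95 in each of the other libraries, and its part in the results was not tested. Of the shoot markers, *CA1* had 88451 to 110780 normalized reads in the mutant libraries, against 122870 and 132620 in Col-0. The root marker *COBL9* had 173 to 233 in the libraries of *fld*, *ld* and *sdg26 aprf1* and 207 and 281 in those of *efl2 efl4*, against 279 and 280 in Col-0. Whether these 2 differences bear on the results was not tested.

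*FLC* was nearly silent in Col-0 and rose in each of the 4 mutants. It had 624 and 613 normalized reads in *fld*, against 4.02 and 3.97 in Col-0. In *ld* it had 490 and 520, against 3.99 and 3.94 in Col-0. In *efl2 efl4* it had 371 and 391, against 4.03 and 3.97 in Col-0. The lowest of these mutant values was still far above the highest Col-0 value. *FLC* was lower in *sdg26 aprf1*, with 167 and 144 normalized reads, against 4.01 and 3.96 in Col-0, and here too the groups did not overlap. The values of a mutant and of Col-0 come from the same table, and all 4 tables repeat the same 2 Col-0 libraries.

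Col-0 held 4 reads on *FLC* in each of its 2 libraries. Relative to these 8 reads, the reads of *fld* (1235 in both libraries) were 153 times higher at equal depth, with an exact 95% counting interval of 77.6 to 356. The ratio was 125 for *ld* (63.2 to 290), 94.9 for *efl2 efl4* (47.9 to 221) and 38.5 for *sdg26 aprf1* (19.3 to 90.0). The width of the intervals comes almost wholly from the few reads of Col-0. They cover counting error only, since reads without molecular identifiers are not independent molecules.

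Each mutant was tested against Col-0 by limma on log2(normalized reads + 1), on which genes with few reads show less than their full change. A gene counted as past the thresholds when its |log2FC| was 1 or more and its two-sided P, before adjustment, was under 0.01. Adjusted p values (Benjamini-Hochberg) were taken over the genes that averaged 10 or more normalized reads. In *fld* the log2FC of *FLC* was 6.95 (standard error 0.17, limma adjusted p = 0.00751). It was 6.67 for *ld* (0.18, adjusted p = 0.0109), 6.25 for *efl2 efl4* (0.20, 0.0122) and 4.96 for *sdg26 aprf1* (0.24, 0.0982). By P, *FLC* ranked first among the genes tested in each of the 4 comparisons. It passed the filter on low values through its mutant reads, and its rank without that filter was not determined. In *sdg26 aprf1* the adjusted p missed 0.05, and it was 0.0338 with the replicate number as a block in the model. With that block the rank of *FLC* was 1 in *fld* and *ld* and 2 in *efl2 efl4* and *sdg26 aprf1*.

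**Figure D1:**
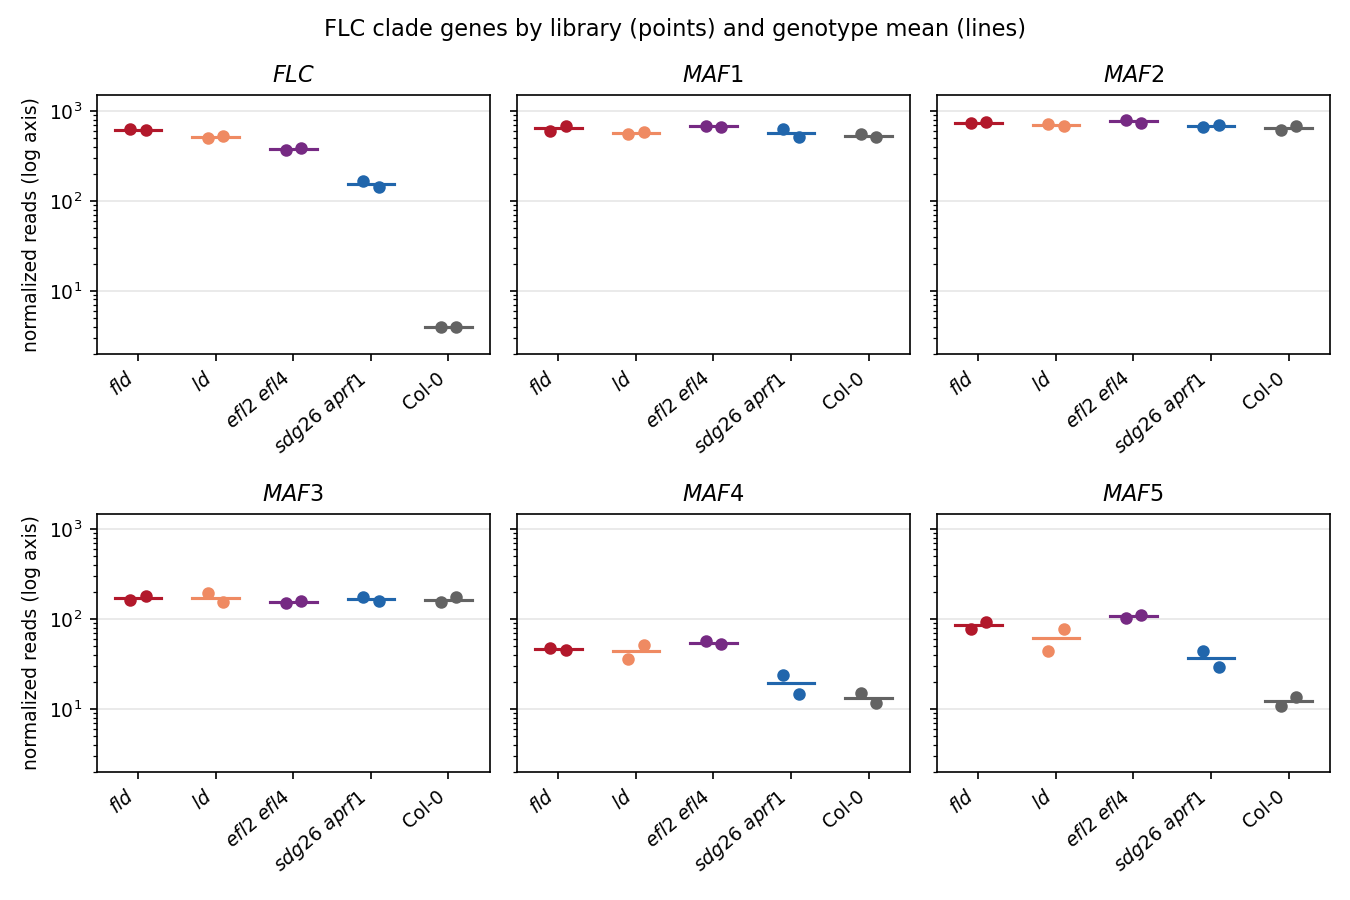
Normalized reads on 1 scale (log axis) of the 6 protein-coding genes in each library (points), with the mean of each genotype as a line. *FLC* separates the 4 mutants from Col-0 (622 and 609 in *fld*, 3.95 to 4.00 in Col-0), *MAF4* and *MAF5* differ from Col-0 by less (*MAF4* in *sdg26 aprf1* overlaps with it), and *MAF1*, *MAF2* and *MAF3* stay near their Col-0 levels.

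Of the 6 members tested, 3 (*FLC*, *MAF4* and *MAF5*) were past the thresholds in *fld*, where 0.394% of all 20053 genes tested were. The same 3 members were past them in *ld*, against 0.504% of all genes, and in *efl2 efl4*, against 0.434%. In *sdg26 aprf1* it was 2 members, *FLC* and *MAF5*, against 0.498% of all genes. Each called member was higher in the mutant. Without the replicate block, *FLC* was the only member with an adjusted p under 0.05. It was called in *fld* (0.00997% of all genes), *ld* (0.00499%) and *efl2 efl4* (0.00499%). In *sdg26 aprf1* limma called no gene at all (0%), and 916 genes, 4.56% of those tested, had an unadjusted P under 0.05. There edgeR also called 0 genes and DESeq2 called 56. With the replicate block, the adjusted p was under 0.05 for *FLC*, *MAF4* and *MAF5* in *fld*, *ld* and *efl2 efl4*, where 2.25%, 3.38% and 2.86% of all genes were called. For *sdg26 aprf1* the block left *FLC* alone, beside 0.0399% of all genes.

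**Figure D2:**
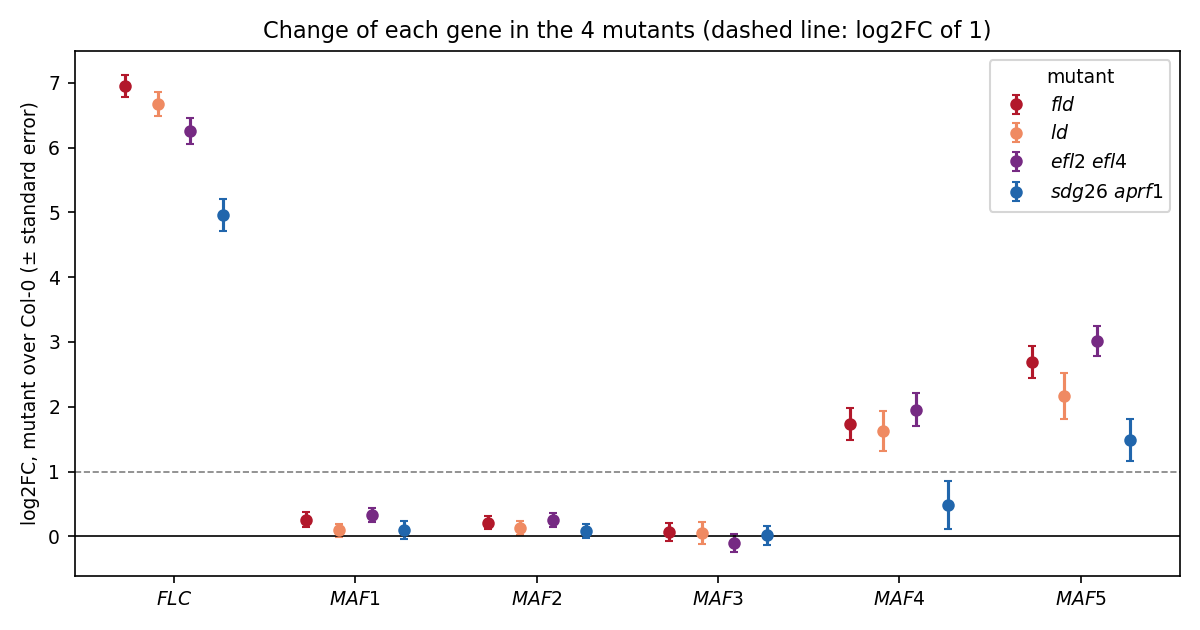
log2FC of each gene in each mutant over Col-0 (limma, on log2(normalized reads + 1)), with standard errors as bars and a dashed line at 1. *FLC* lies between 4.96 and 6.95, *MAF5* between 1.49 and 3.02, *MAF4* between 0.48 and 1.95, and the 12 values of *MAF1*, *MAF2* and *MAF3* lie between −0.10 and 0.33.

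Among the 6 genes tested, *MAF5*, the last gene of the tandem cluster, rose most after *FLC*. It had 77.7 and 94.5 normalized reads in *fld*, against 11.05 and 13.9 in Col-0. In *ld* it had 44.1 and 78.2, against 10.97 and 13.8 in Col-0. In *efl2 efl4*, where it was highest, it had 103 and 113, against 11.1 and 13.9 in Col-0. None of these libraries overlapped with Col-0, and neither did those of *sdg26 aprf1*, with 44.4 and 29.9 normalized reads, against 11.03 and 13.9 in Col-0. The spread between replicates was widest in *ld* (61.1 ± 24.1; SD, n = 2).

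The log2FC of *MAF5* in *fld* was 2.69 (standard error 0.25, limma adjusted p = 0.294). It was 2.17 for *ld* (0.36, adjusted p = 0.711), 3.02 for *efl2 efl4* (0.23, adjusted p = 0.163) and 1.49 for *sdg26 aprf1* (0.33, adjusted p = 0.741). All 4 were past the thresholds on log2FC and unadjusted P. With the replicate block the adjusted p was 0.000297, 0.00464, 3.18e-05 and 0.319 in that order. In *sdg26 aprf1* the call was lost without *sdg26 aprf1* replicate 1 (log2FC 1.21), without *sdg26 aprf1* replicate 2 (1.76) and without Col-0 replicate 1 (1.33), since the unadjusted limma P was then above 0.01. DESeq2 on the recovered reads gave a log2FC of 1.58 for *MAF5* in *sdg26 aprf1*, also just short of that threshold. Without the filter on low values, the calls of *MAF5* in *ld* and *sdg26 aprf1* were lost as well, with the log2FC as before.

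*MAF4*, the neighbour of *MAF5*, rose in 3 of the 4 mutants. It had 47.8 and 46.3 normalized reads in *fld*, against 15.1 and 11.9 in Col-0. In *ld* it had 36.0 and 51.8, against 15.0 and 11.8 in Col-0. In *efl2 efl4* it had 56.8 and 53.1, against 15.1 and 11.9 in Col-0. These mutant libraries all lay above those of Col-0. In *sdg26 aprf1* the values of 24.2 and 15.0, against 15.0 and 11.9 in Col-0, overlapped, although the mutant had the higher value within each replicate number.

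For *MAF4* the log2FC was 1.74 with *fld* (standard error 0.25, limma adjusted p = 0.733), 1.63 with *ld* (0.31, adjusted p = 0.823), 1.95 with *efl2 efl4* (0.26, adjusted p = 0.400) and 0.48 with *sdg26 aprf1* (0.37, adjusted p = 0.9999). With the replicate block the adjusted p was 0.00998, 0.0272, 0.00262 and 0.795 in that order. Without *fld* replicate 1, the unadjusted limma P in *fld* passed just above 0.01 and the call was lost (log2FC 1.71). In *ld* it was lost without *ld* replicate 2 (1.37) and without Col-0 replicate 2 (1.47), and also when no filter on low values was used. At 27 reads in both Col-0 libraries, counting alone left a 95% interval of 17.8 to 39.3 reads for *MAF4*, and for *MAF5*, with 25 reads, one of 16.2 to 36.9.

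*MAF1*, *MAF2* and *MAF3*, the more strongly expressed homologs, were past the thresholds in no mutant, and neither edgeR nor DESeq2 placed them there. At an unadjusted P under 0.05, limma within each table and without the block picked out *MAF1* in *efl2 efl4* only. There 4.69% of all genes tested were under 0.05. With the block, *MAF1* and *MAF2* were under 0.05 before adjustment in *fld* and *efl2 efl4*. So were many other genes, since by P the 2 ranked 1432 and 1433 of 20053 in *fld*. In *efl2 efl4* they ranked 789 and 1721 of 20027. None of the 3 genes had an adjusted p under 0.05 in any mutant (lowest 0.0848, for *MAF1* in *efl2 efl4*). The values of *MAF1* in *efl2 efl4* were 685 and 662 normalized reads, against 556 and 515 in Col-0, and the log2FC was 0.33 (standard error 0.10, adjusted p = 0.999). *MAF1* had 593 and 685 in *fld*, against 553 and 515 in Col-0. The *fld*, *ld* and *efl2 efl4* libraries lay above Col-0, while those of *sdg26 aprf1*, at 629 and 513, against 552 and 513 in Col-0, overlapped with it. The log2FC of *MAF1* in *fld*, *ld* and *sdg26 aprf1* was 0.26, 0.09 and 0.09.

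*MAF2* behaved like *MAF1* in the position of its libraries. It had 735 and 750 normalized reads in *fld*, against 611 and 675 in Col-0, and 795 and 740 in *efl2 efl4*, against 613 and 675 in Col-0. The 2 *ld* libraries, at 710 and 683, also lay above the 606 and 670 of Col-0, and those of *sdg26 aprf1* (661 and 697, against 609 and 674 in Col-0) overlapped with it. Its log2FC lay between 0.08 in *sdg26 aprf1* and 0.25 in *efl2 efl4*. *MAF3* had 153 to 192 normalized reads in the 8 mutant libraries, against 157 to 176 in Col-0, and its groups overlapped in each mutant.

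The mean of the 4 mutants was set against Col-0 in a fit of all 10 libraries, with recovered whole reads brought to 1 scale. Of the 6 members tested, 2 were called at an adjusted p under 0.05, against 0.185% of all 20050 genes. The difference was 6.21 on the log2 scale (standard error 0.09, adjusted p = 6.25e-08) for *FLC* and 2.34 (0.24, 0.0185) for *MAF5*. *MAF4* missed the threshold at 1.45 (0.22, 0.0747), and passed it with the replicate block (adjusted p = 0.0113), which called 2% of all genes. The differences of *MAF2* (0.17 ± 0.07, adjusted p = 0.666), *MAF1* (0.20 ± 0.09, adjusted p = 0.807) and *MAF3* (0.01 ± 0.11; standard errors) were small beside these. The call of *MAF5* was lost on leaving out any 1 of 7 libraries, with an adjusted p of 0.0502 (without *sdg26 aprf1* replicate 1) to 0.203 (without Col-0 replicate 1). The other 5 were both *fld* libraries, both *efl2 efl4* libraries and Col-0 replicate 2.

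Whether the mutants differed from each other was tested in the same fit. An F test among the 4 mutants called *FLC* (adjusted p = 0.00260), against 0.0948% of all genes, and not *MAF4* (0.338) or *MAF5* (0.395). On this scale *FLC* stood at 622 and 609 normalized reads for *fld*, 493 and 522 for *ld*, 370.45 and 388 for *efl2 efl4* and 166 and 143 for *sdg26 aprf1*, against 4.00 and 3.95 for Col-0. Each genotype lay above the next in this order without overlap. All 6 pairs of mutants were compared, with p adjusted over all genes in each pair.

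*FLC* was higher in *fld* than in *sdg26 aprf1* by 1.99 on the log2 scale (standard error 0.11, adjusted p = 0.00139), and it was the only member called, against 0.0549% of all genes. It was higher in *ld* than in *sdg26 aprf1* by 1.71 (adjusted p = 0.00389), against 0.0499% of all genes, and in *efl2 efl4* than in *sdg26 aprf1* by 1.29 (0.00665), against 0.16%. The call between *ld* and *sdg26 aprf1* was lost without *ld* replicate 1 (adjusted p = 0.0608) or *ld* replicate 2 (0.0631). The call between *efl2 efl4* and *sdg26 aprf1* was lost without *efl2 efl4* replicate 1 (0.0811), *efl2 efl4* replicate 2 (0.0881) or *sdg26 aprf1* replicate 2 (0.0663). With the replicate block, *MAF4* and *MAF5* were called as well between *efl2 efl4* and *sdg26 aprf1*, at differences of 1.48 (adjusted p = 0.0254) and 1.54 (0.0205), and 2.82% of all genes were called in that fit.

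Among *fld*, *ld* and *efl2 efl4*, limma called no member. *FLC* differed by 0.28 on the log2 scale (standard error 0.11, adjusted p = 0.99996) between *fld* and *ld*, where 0.00998% of all genes were called, and it was the only member with an unadjusted P under 0.05. The difference between *fld* and *efl2 efl4* was 0.70 (adjusted p = 0.142, against 0.0848% of all genes), again with *FLC* alone under 0.05, and it was called with the replicate block (adjusted p = 0.0203), which called 1.5% of all genes in that pair. The difference between *ld* and *efl2 efl4* was 0.42 (adjusted p = 0.426, against 0.0648% of all genes), and here *MAF5* also had an unadjusted P under 0.05, with a difference of −0.85 (adjusted p = 0.602). Before adjustment, 1.30%, 5.97% and 7.20% of all genes were under 0.05 in these pairs, in the order given. In these 3 pairs edgeR also called 0 members. The order *fld*, *ld*, *efl2 efl4* of *FLC* rests on libraries that did not overlap, and limma called neither of its 2 steps without the block or with it (block adjusted p = 0.99952 between *fld* and *ld* and 0.109 between *ld* and *efl2 efl4*).

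*MAF4* and *MAF5* had another order, from highest to lowest mean *efl2 efl4*, *fld*, *ld* and *sdg26 aprf1*. For *MAF5*, the libraries of *efl2 efl4* (103 and 112 on 1 scale) lay above those of *fld* (77.5 and 94.1), which overlapped with those of *ld* (44.4 and 78.5), and *ld* lay just above *sdg26 aprf1* (44.3 and 29.8). None of the differences among *efl2 efl4*, *fld* and *ld* was called for *MAF4* or *MAF5*. Per kb of the median transcript, *FLC* was 2.86 and 2.74 times as high as *MAF5* in *efl2 efl4* and 2.97 and 3.81 times in *sdg26 aprf1*. The ratio was 6.37 and 5.14 in *fld* and 8.82 and 5.27 in *ld*, against 0.288 and 0.227 in Col-0. *MAF5* exceeded *FLC* in Col-0 alone.

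Across the 10 libraries, *MAF5* followed *MAF4* (Pearson r = 0.940 on the log2 scale) and *FLC* (r = 0.917), and *FLC* followed *MAF4* with r = 0.853. *MAF1* had r of 0.585 with *FLC*, 0.773 with *MAF4* and 0.789 with *MAF5*, and *MAF2* had 0.731, 0.739 and 0.820 in that order. *MAF3* had r between −0.12 and 0.24 with each of the other members. These values describe 5 pairs of libraries that share their genotype, so they mainly restate the differences between genotypes. By the same measure, the genes most like *FLC* among 773 candidates, from which the members were left out and whose genotype means spanned at least 1 on the log2 scale, were AT5G06190 (r = 0.956), AT1G77960 (0.954), AT4G29990 (0.954), AT1G06420 (0.948) and *HSD3* (AT3G47360, 0.941). Among the same candidates, those most like *MAF5* were *HSD3* (0.918), AT5G06190 (0.865), AT4G00250 (0.862), AT1G16360 (0.859) and AT2G32340 (0.859). *HSD3*, a hydroxysteroid dehydrogenase family gene, averaged 301 normalized reads for *fld*, 286 for *ld*, 273 for *efl2 efl4* and 181 for *sdg26 aprf1*, against 133 for Col-0.

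**Figure D3:**
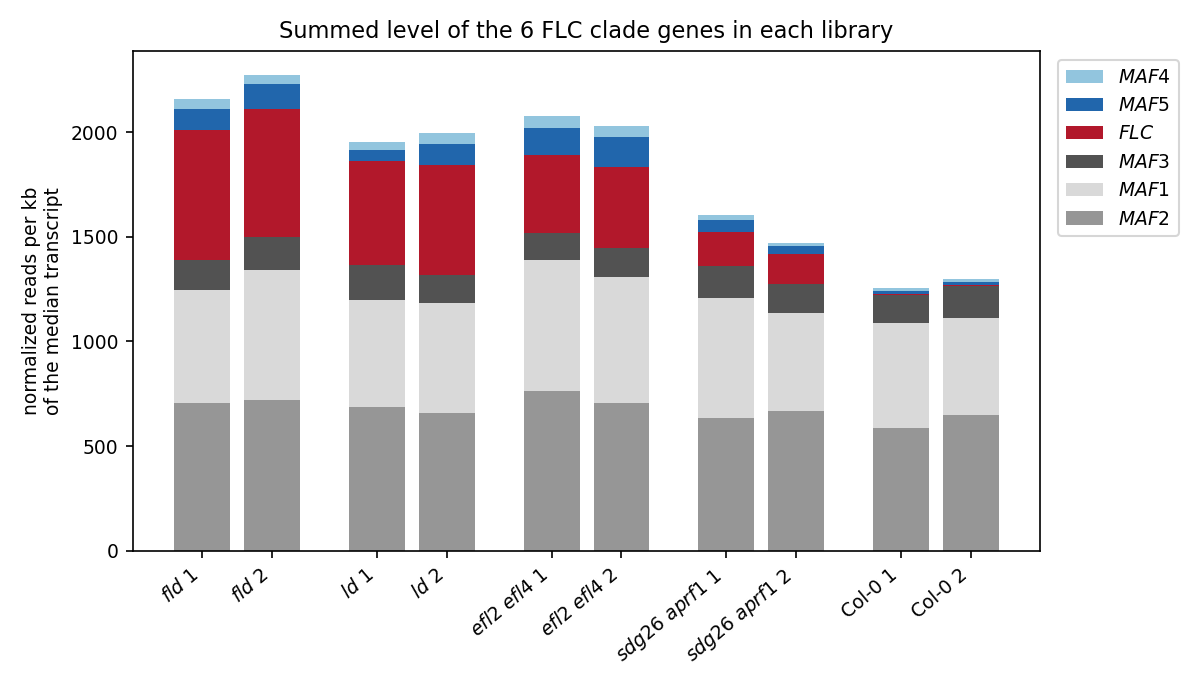
Summed level of the 6 protein-coding genes in each library, in normalized reads per kb of the median annotated transcript, split by gene. The sum lies between 1953 and 2276 in *fld*, *ld* and *efl2 efl4*, at 1605 and 1469 in *sdg26 aprf1* and at 1256 and 1298 in Col-0, and the segment that differs most is *FLC*.

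The level of each gene was also set per kb of its median annotated transcript, so that genes could be compared. In Col-0, *MAF2* (615 ± 43.5 normalized reads per kb; SD, n = 2) and *MAF1* (485 ± 25.2) were highest, *MAF3* was intermediate (143.5 ± 10.96), and *MAF5* (15.7), *MAF4* (13.4) and *FLC* (3.99) were low. *MAF2* was highest in each mutant too. In *fld* the mean of *FLC* was 618 ± 9.06, and *FLC* lay above *MAF1* in replicate 1 and below it in replicate 2 (612, against 622 for *MAF1*). *FLC* came after *MAF1* in *ld* (510 ± 20.1), *efl2 efl4* (381 ± 12.5) and *sdg26 aprf1* (155 ± 16.4). *FLC* made up 28.9% and 26.9% of the summed level of the 6 genes for *fld*, 25.4% and 26.3% for *ld*, 17.9% and 19.2% for *efl2 efl4* and 10.4% and 9.77% for *sdg26 aprf1*, against 0.320% and 0.306% for Col-0.

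The summed level relative to Col-0 was 1.74 for *fld*, 1.55 for *ld*, 1.61 for *efl2 efl4* and 1.20 for *sdg26 aprf1*. The length used matters here. Per kb of all annotated exons *FLC*, with means of 522 for *fld*, 430.1 for *ld* and 321 for *efl2 efl4*, was above *MAF2* (219, 207 and 226 in the same order). Among the mutants, *MAF2* was higher than *FLC* by that length only in *sdg26 aprf1* (195 and 205, against a mean of 131 for *FLC*). Per kb of all annotated exons *FLC* made up 48.8% and 46.2% of the sum in *fld* and 21.8% and 20.8% in *sdg26 aprf1*, against 0.786% and 0.738% in Col-0. The corresponding sums were 2.49 and 1.39 times that of Col-0 in *fld* and *sdg26 aprf1*. The order of the genotypes by the share of *FLC* was the same with both lengths.

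The antisense gene AT5G01675 had very few reads in any genotype. It had 5 and 9 reads in *fld*, against 0 and 1 in Col-0. Its reads numbered 7 and 7 for *ld*, 7 and 3 for *efl2 efl4*, and 2 and 1 for *sdg26 aprf1*. The libraries of *fld*, *ld* and *efl2 efl4* lay above both Col-0 libraries, whereas the lower *sdg26 aprf1* library and the higher Col-0 library had 1 read each. Relative to the single read of Col-0, the ratio at equal depth was 13.9 for *fld* (exact 95% counting interval 2.12 to 588), 13.98 for *ld* (2.13 to 591), 9.96 for *efl2 efl4* (1.42 to 432) and 2.99 for *sdg26 aprf1* (0.240 to 157). A count of 0 in a library of this depth allows up to 3 reads.

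AT5G01675 did not reach the mean of 10 normalized reads required for the test. Fitted without that filter, its log2FC was 2.46 for *fld* (limma adjusted p = 0.897), 2.52 for *ld* (adjusted p = 0.858), 2.0006 for *efl2 efl4* (adjusted p = 0.959) and 0.80 for *sdg26 aprf1*. None was past the thresholds, and the unadjusted P was under 0.05 for *fld* and *ld*. Of the reads on both genes, the antisense gene took 1.12% in *fld* (14 reads beside 1235 on *FLC*, exact binomial 95% interval 0.614% to 1.87%), 1.38% for *ld* (0.756% to 2.30%), 1.30% for *efl2 efl4* (0.623% to 2.37%) and 0.962% for *sdg26 aprf1* (0.199% to 2.78%). In Col-0 it was 1 of 9 reads, 11.1% (0.281% to 48.25%), an interval that covers the values of all 4 mutants. A change in the ratio of antisense to sense reads was not detectable at this depth.

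*FLC* and AT5G01675 overlap in their exons, which limits what these reads can show. Of the 1180 exonic bases of *FLC*, 804 (68.1%) also lie in exons of AT5G01675. Of the 1221 exonic bases of AT5G01675, 417 lie outside the exons of *FLC*. AT5G01675 reaches only slightly beyond *FLC* at either end, so most of these 417 bases lie in *FLC* introns. In the annotated *FLC* transcript of 7 exons, exon 1 (294 bases) and exon 7 (444 bases) lie wholly under antisense exons, and exons 2 to 6 do not overlap with them. The strand setting of the read counting is not given in the sources used here. Reads of unspliced *FLC* RNA over its introns may therefore have been counted on AT5G01675. Likewise, reads in the shared exons may have been assigned by strand, dropped or mixed. The level of *FLC* per kb is subject to the same limit. No other member overlaps a gene of the tables.

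**Figure D4:**
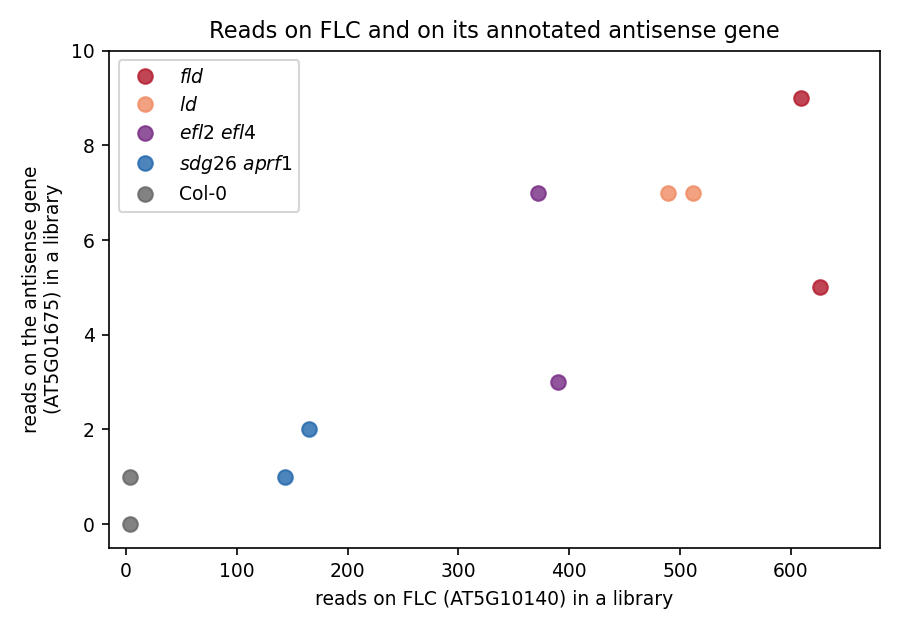
Reads recovered on *FLC* (horizontal axis) and on its annotated antisense gene AT5G01675 (vertical axis) in each of the 10 libraries. The *fld*, *ld* and *efl2 efl4* libraries have 3 to 9 antisense reads beside 372 to 626 *FLC* reads, and the Col-0 libraries 0 and 1 beside 4.

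Within the tandem cluster, members past the thresholds lay only at the downstream end. *MAF2* and *MAF3*, at its upstream end, had log2FC values of −0.10 to 0.25 over the 4 mutants, and *MAF4* and *MAF5* had 0.48 to 3.02. Of the 3 annotated genes on each side of the cluster, 4 of 6 were tested in *fld*, *ld* and *efl2 efl4* and 5 in *sdg26 aprf1*, and none was past the thresholds. In *fld*, *ld* and *efl2 efl4* their log2FC lay between −0.23 and 0.12. *BST1* (AT5G65090), the gene next to *MAF5*, had 62.8 and 69.4 normalized reads in *fld*, against 66.3 and 64.6 in Col-0.

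The noncoding gene AT5G09295, which ends at position −1101 relative to the start of *MAF2*, had 16.2 and 17.9 normalized reads in *sdg26 aprf1*, against 7.02 and 4.95 in Col-0. Its log2FC of 1.38 (standard error 0.37, limma adjusted p = 0.910) missed the threshold on P, and it was too low to be tested in the other 3 mutants. Around *MAF1*, 3 of the 6 neighbours were tested, none was past the thresholds, and their log2FC lay between −0.18 and 0.07. For all these neighbours no unadjusted limma P was under 0.05 except that of AT5G09295 in *sdg26 aprf1*, where 4.56% of all genes were.

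**Figure D5:**
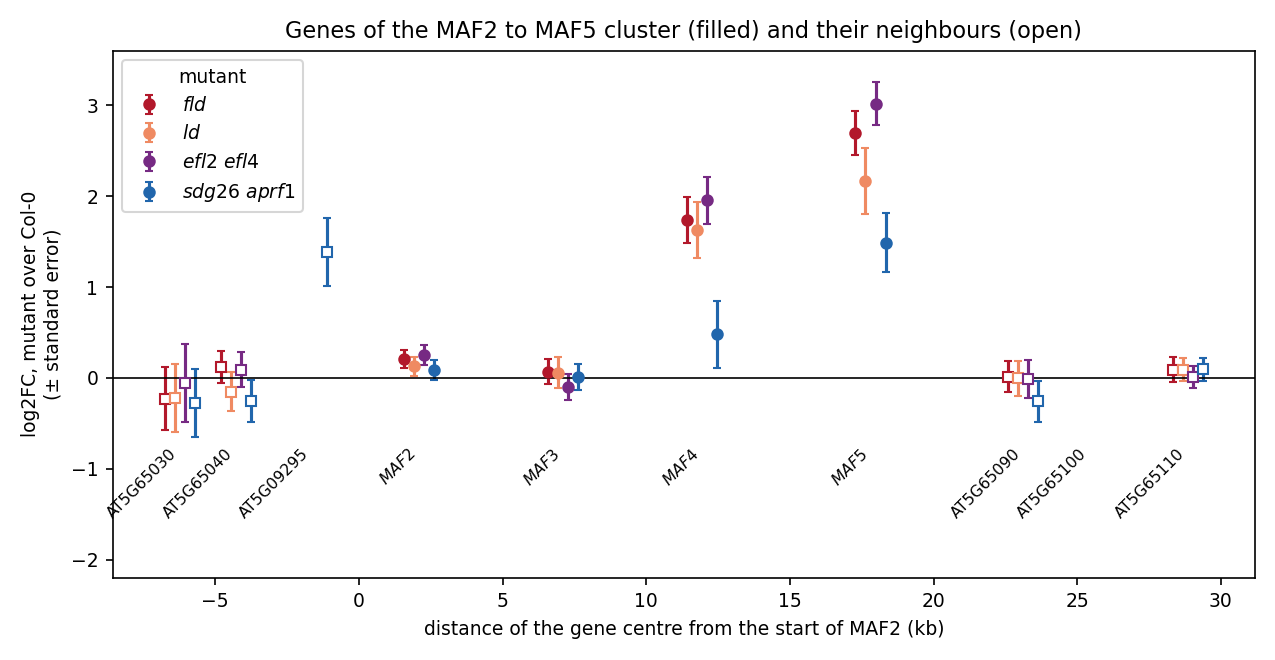
log2FC over Col-0 (limma, bars are standard errors) of the 4 genes of the tandem cluster (filled) and of its tested neighbours (open), placed by the distance of the gene centre from the start of *MAF2* in kb, with the mutants slightly offset. *MAF4* and *MAF5* stand above their neighbours on both sides in *fld*, *ld* and *efl2 efl4* (1.63 to 3.02, against at most 0.25).

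Genes that act with the clade were taken as lists. The lists were chosen with earlier results of these data known, so their counts and medians only describe the genes listed. Of 13 downstream targets and partners of FLC, 11 were tested, and 2, *FT* and *SOC1*, fell past the thresholds in *fld*, *ld* and *efl2 efl4*, and none was past them upwards. The median log2FC of the list was −0.46 for *fld*, −0.31 for *ld*, −0.26 for *efl2 efl4* and −0.11 for *sdg26 aprf1*, against −0.0024 to 0.00072 for all genes tested. *SOC1* had 13.0 and 16.1 normalized reads in *fld*, against 268 and 311 in Col-0 (log2FC −4.23, standard error 0.20). It had 23.03 and 20.3 with *ld* (−3.67) and 31.9 and 23.0 with *efl2 efl4* (−3.37), all below the Col-0 libraries. *FT* had 2.99 and 6.03 in *fld*, against 51.2 and 62.6 in Col-0, and its log2FC was −3.44 for *fld*, −2.95 for *ld* and −2.33 for *efl2 efl4*.

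In *sdg26 aprf1*, where *FLC* was lowest among the mutants, neither gene was past the thresholds. *SOC1* had 176 and 135 normalized reads there, against 268 and 310 in Col-0 (log2FC −0.90, standard error 0.18, limma adjusted p = 0.693), where the log2FC and not P missed its threshold. *FT* had 40.4 and 27.9, against 51.1 and 62.5 in Col-0 (log2FC −0.73, standard error 0.27). Both mutant libraries lay below Col-0 for both genes. These 2 were the only genes of the list with an unadjusted P under 0.05, beside 4.56% of all genes. By limma the adjusted p of *SOC1* was 0.0512 for *fld*, 0.0780 for *ld* and 0.105 for *efl2 efl4*, and 8.18e-07, 1.89e-05 and 1.81e-06 with the replicate block. That of *FT* was 0.418, 0.456 and 0.347 in the same order, and 0.000605, 0.00194 and 0.00114 with the block. The block also gave an adjusted p under 0.05 in *fld* for 2 further genes of the list, named here after their values were seen, beside 2.25% of all genes. *SVP*, a MADS-box partner of FLC, had 1072 and 808 normalized reads in *fld*, against 1511 and 1081 in Col-0 (log2FC −0.46, block adjusted p = 0.00345), and *TEM1*, a repressor of *FT*, had 2375 and 1121, against 2086 and 800 in Col-0 (log2FC 0.34, block adjusted p = 0.0397). The groups of *TEM1* overlapped. In *ld*, *efl2 efl4* and *sdg26 aprf1* the block adjusted p was 0.0655, 0.203 and 0.794 for *SVP*, and 0.0803, 0.347 and 0.997 for *TEM1*. The log2FC of *TEM1* was 0.33, −0.20 and −0.02 in that order.

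All 18 listed activators of *FLC*, among them the FRIGIDA complex genes *FRI*, *FRL1*, *FRL2*, *FES1* and *SUF4* and genes of the PAF1 and SWR1 complexes, were tested, and limma, edgeR and DESeq2 placed 0 past the thresholds in each mutant. At an unadjusted limma P under 0.05 there was 1, in *fld*, and none in the other mutants. Their log2FC lay between −0.25 and 0.35 over the 4 mutants. Of the 22 listed repressors of *FLC*, 21 were tested and 2 were past the thresholds, both of them mutated genes in their own mutants (*FLD* in *fld* with a log2FC of −3.43, and *SDG26* in *sdg26 aprf1* with −2.44). None of the other autonomous pathway, Polycomb or vernalization genes of that list was past them. With the replicate block, *LD* (log2FC −0.81, adjusted p = 0.000825) and *FPA* (0.27, adjusted p = 0.0445) in *ld* had an adjusted p under 0.05 as well, beside 3.38% of all genes.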

How the data were processed

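RNA was sequenced in single-end reads of 50 bases from 10 libraries. Per the labels and the study's methods, the authors aligned the reads to TAIR10 with HISAT2, counted them with featureCounts and normalized them with edgeR, and deposited the signal as normalized reads per gene in 4 tables, 1 per mutant, each with the same 2 Col-0 libraries. The strand setting and the gene annotation are not given in the sources used here. Dividing each value by the size of 1 read gave whole reads (within 0.1) for 99.0% to 100% of the values, and the Col-0 reads were identical in the 4 tables. limma 3.58.1 (with a trend) was fitted within each table, and recovered reads were put on 1 scale by TMM for the fit of all 10 libraries. On the recovered reads, edgeR 4.0.16 (quasi-likelihood) placed 84, 104, 90 and 106 genes past the thresholds in *fld*, *ld*, *efl2 efl4* and *sdg26 aprf1*, and DESeq2 1.42.0 served as another alternative, with R 4.3.3, Python 3.11.15, numpy 2.4.6, pandas 2.3.3, scipy 1.17.1, matplotlib 3.10.9 and Biopython 1.88. Other alternatives were pseudocounts of 0.5 and 5, filters at 0 and 20 normalized reads, other scalings, the replicate block and leaving out each library. Scripts were tested on simulated data.

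Differences between replicate 1 and replicate 2 correlated between genotypes with r of 0.371 to 0.611 over 20050 genes, above 0.1 in all 10 pairs of genotypes. The numbers thus seem to pair the libraries, but the main fits did not use this pairing. It entered only through the replicate block, an alternative given beside them. The chi-square per degree of freedom between the 2 replicates of a genotype was 14.9 to 20.6, so neither replicate was a copy of the other. Libraries of different genotypes were not compared in this way. The labels number the replicates and name no cultures, so p values measure the spread between these libraries. An exact permutation test of 2 against 2 libraries cannot give a p below 0.333. The genes named are all 7 members, the listed genes past the thresholds in any mutant, the mutated genes, the 3 neighbours on each side of a locus, and the 5 genes most like *FLC* and *MAF5*. The members and lists were chosen with earlier results of these data known. All 32548 identifiers matched the RefSeq annotation of TAIR10.1, from which positions and sequences come, while the reads were aligned to TAIR10.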

Additional observations from a re-analysis of the deposited data

Results flagged for a closer look

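3 differences between mutants, each tested directly in the fit of all 10 libraries, stood out because *FLC* had different levels in mutants under the same comparison with Col-0. On the log2 scale *FLC* was higher by 1.99 in *fld* than in *sdg26 aprf1*, by 1.71 in *ld* than in *sdg26 aprf1* and by 1.29 in *efl2 efl4* than in *sdg26 aprf1*. In all 3 comparisons both libraries of the first mutant lay above both libraries of *sdg26 aprf1*. With 2 libraries in each genotype, no group was large enough to look for single libraries far from the rest.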

How the results depend on the processing

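Of 937 values from other settings, 723 values of single genes kept their direction and their side of the threshold. Of the other values of single genes, 22 lost a call, 4 gained one and 12 changed sign. Among the counts of members, 152 stayed within 1.5 times the main count, while 24 did not. The log2FC of *FLC* ranged over all settings from 6.11 to 7.27 when *fld* was compared, 5.83 to 6.99 when *ld* was, 5.42 to 6.57 with *efl2 efl4*, and from 4.15 up to 5.28 with *sdg26 aprf1*. At an adjusted p under 0.05 without the replicate block, the members called numbered 1 for *fld*, 1 for *ld*, 1 for *efl2 efl4* and 0 for *sdg26 aprf1*. Without a filter on low values, 1 member was past the thresholds in *ld* and 1 in *sdg26 aprf1*, and DESeq2 left 1 in *sdg26 aprf1*. The cause was not tested. Pairing the libraries by a replicate block called 1 member between *fld* and *efl2 efl4*, where it called 1.5% of all genes. Between *efl2 efl4* and *sdg26 aprf1* it called 3 members, against 2.82% of all genes. Beside these and the adjusted p values given with the results, the block changed no other call of a member. Leaving out each library in turn gave 2 to 3 members past the thresholds in *fld*, 2 to 3 in *ld* and 1 to 2 in *sdg26 aprf1*. It gave 0 to 1 member called between *ld* and *sdg26 aprf1*, 0 to 1 between *efl2 efl4* and *sdg26 aprf1*, and 1 to 2 for the mean of the 4 mutants. Signs turned only among values near 0 when libraries were left out. The ranges were −0.011 to 0.145 for *MAF3* in *fld*, −0.11 to 0.22 for *MAF3* in *ld*, −0.063 to 0.093 for *MAF3* in *sdg26 aprf1*, −0.052 to 0.24 for *MAF1* in *sdg26 aprf1*, −0.15 to 0.36 for *MAF4* between *fld* and *ld*, and −0.065 to 0.090 for *MAF3* in the mean of the mutants. Where 1 library was left in a group, it was assumed to vary like the others. The 8 reads on *FLC* in Col-0 and the single antisense read limit the precision of every ratio to Col-0.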

Other observations

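*FPA* was singled out after its values were seen. Among the listed genes that were not past the thresholds, this autonomous pathway gene, which encodes an RNA-binding protein that represses *FLC*, had 1445 and 1566 normalized reads in *sdg26 aprf1*, against 1102 and 991 in Col-0. Both mutant libraries lay above Col-0, with a log2FC of 0.53 (standard error 0.11, limma adjusted p = 0.693, and 0.253 with the replicate block). In *ld* its values were 1282 and 1233, against 1096 and 986 in Col-0 (log2FC 0.27, adjusted p = 0.0445 with the replicate block). The block called 3.38% of all genes in *ld*. In *fld* they were 1254 and 1157, against 1104 and 993 in Col-0 (log2FC 0.20, block adjusted p = 0.145), again with both mutant libraries above Col-0. In *efl2 efl4* they were 978 and 1109, against 1108 and 993 in Col-0, and the groups overlapped.

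The genes most like *FLC* across the libraries had a smaller range than *FLC* itself. AT1G77960 averaged 189 normalized reads for *fld*, 269.6 for *ld*, 166 for *efl2 efl4* and 161 for *sdg26 aprf1*, against 30.8 for Col-0. AT4G29990 averaged 130 for *fld*, 134 for *ld*, 119 for *efl2 efl4* and 117 for *sdg26 aprf1*, against 36.3 for Col-0. In both, *sdg26 aprf1* lay close to *efl2 efl4*, whereas *FLC* was lower in *sdg26 aprf1* than in *efl2 efl4*. These genes were picked from 773 candidates for their likeness to *FLC*, so their levels are a description.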
